A study of Mus musculus with 6 samples.

Results

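The mitochondrial chaperones and proteases described here are 10 genes, Lonp1, Clpp, Clpx, Spg7, Yme1l1, Hspd1, Hspe1, Hspa9, Dnaja3 and Trap1, out of 30281 gene symbols in the mouse RNA-Seq data. They were chosen by name, and Lonp1 was chosen because it fell with rapamycin in these libraries. RNA-Seq was performed on 6 libraries of cultured mouse cells, 1 per condition, from poly(A)-selected RNA. Wild-type Tsc2+/+ p53-/- MEFs (mouse embryonic fibroblasts) and Tsc2-/- p53-/- MEFs were sequenced without treatment. MKOC and TJ cells, 2 lines of kidney epithelial cells labelled Tsc2-null, were each sequenced without treatment and after 18 hours in 100 nM rapamycin, and TJ cells are labelled as derived from a secondary tumor in C57BL6 mice. The treatment protocol of all 6 samples gives serum-free DMEM with BSA. There is no kidney library with wild-type Tsc2, each line stands for itself, and both MEF lines are labelled p53-/- while the kidney labels name no p53 genotype, so that a difference between MEFs and kidney cells cannot be told apart from a difference in p53 genotype.

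Tsc2, the gene that the labels describe as deleted, restrains mTORC1, the kinase complex that rapamycin inhibits. The targeted gene was checked first, and its RNA was present in every library. Levels are in TPM, transcript abundance corrected for length and scaled to the same total in each library. Tsc2 stood at 22.6 TPM in wild-type MEFs, at 10.5 TPM in the MEF library labelled Tsc2-/-, and 49.1 and 44.0 TPM in untreated MKOC and TJ cells, against 19.5 and 19.1 TPM with rapamycin. The values per transcript do not show which exons were read. The genotypes are therefore used below only as the labels give them.

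Libraries held between 22887020 and 37505004 estimated counts. The cell types were checked against markers. The 5 kidney tubule markers summed to between 583 and 951 TPM in the kidney libraries and to 0.618 TPM or less in the MEF libraries, although Lhx1 was listed at 0 in all 4 kidney libraries. The 8 epithelial markers summed to between 1134 and 2016 TPM in the kidney libraries, with Cldn7 listed at 0 and Epcam at 0.0268 TPM or less. In the MEF libraries the 8 fibroblast markers summed to 3114 and 3130.4 TPM, against 20.5 to 89.1 TPM in the kidney libraries. The 4 mesothelial markers summed to 368 TPM in the Tsc2-/- MEFs and 2.64 TPM in the Tsc2+/+ MEFs, and the part of this difference in the values below was not tested.

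Most proteins of the mitochondrion are made in the cytosol and enter it unfolded. Hspa9 (mortalin, the mitochondrial Hsp70) pulls them in and helps them to fold with its J-protein partner Dnaja3. Hspd1 (Hsp60) and Hspe1 (Hsp10) form the folding chamber of the matrix, and Trap1 is the mitochondrial Hsp90. Lonp1 and the ClpXP complex (Clpx, the unfoldase, and Clpp, the peptidase) are the ATP-dependent proteases of the matrix. Spg7 (paraplegin) and Yme1l1 are proteases of the inner membrane, with Spg7 facing the matrix and Yme1l1 the intermembrane space. Damage to mitochondrial proteins is known to raise transcripts of such genes through the transcription factors Atf4, Atf5 and Ddit3 (CHOP), and mTORC1 is known to raise Atf4.

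Sequences upstream of 9 of the genes were taken from RefSeq (GRCm38.p6, 250 bases before to 50 bases after each start, 32851 windows in all, 10 of them for these 9 genes since Hspd1 has 2). The set of windows used here held no entry for Hspa9. Motifs were searched on both strands. The C/EBP-ATF composite element TGATGNAA was found in 3.97% of all windows and in none of the 10. The promoters of Lonp1 and Trap1 are shown because both hold TGACGT, the core of the cAMP response element to which ATF and CREB factors bind, while their log2 changes with rapamycin, given below, were -2.04 and -0.45. This motif was added after the promoters had been read and was found in 7.51% of all windows. In Trap1 it lies in the palindrome TGACGTCA, which begins 47 bases before the start, and in Lonp1 it begins 7 bases before the start. Lonp1 also holds the E-box CACGTG, found in 7.15% of all windows, 36 bases before its start. Capitals mark these motifs, and both sequences are on the minus strand, Lonp1 at chr17:56626904-56627153 and Trap1 at chr16:4077828-4078060. Only bases outside annotated exons are printed, and the 233 bases of Trap1 stop short of the start from which positions were counted.
Lonp1: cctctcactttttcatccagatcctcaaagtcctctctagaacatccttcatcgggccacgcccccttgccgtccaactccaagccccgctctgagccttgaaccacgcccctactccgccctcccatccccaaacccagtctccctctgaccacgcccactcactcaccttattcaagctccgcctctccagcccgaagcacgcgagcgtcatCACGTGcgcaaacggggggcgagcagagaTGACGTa
Trap1: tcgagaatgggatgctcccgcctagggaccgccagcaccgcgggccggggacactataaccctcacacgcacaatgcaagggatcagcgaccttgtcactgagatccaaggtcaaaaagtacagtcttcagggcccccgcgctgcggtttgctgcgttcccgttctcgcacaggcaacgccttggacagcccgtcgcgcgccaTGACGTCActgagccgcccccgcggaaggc

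Hspd1 and Hspe1 lie head to head on chromosome 1 and share 1 region between their starts. The heat shock element, in which GAA and its complement alternate, was found in 0.603% of all windows, and among the 10 windows in those of Hspd1 and Hspe1, where it is the same site. The 30 bases around it, on the plus strand at chr1:55088053-55088082, are shown because it has the letters that Hsf1, the heat shock factor, is known to bind. Capitals mark the element, which appears as overlapping copies on both strands.
Hspd1-Hspe1: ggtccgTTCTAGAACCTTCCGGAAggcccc
The site lies between the first exon of the main Hspd1 transcript and the first exon of Hspe1, and within an exon of a minor Hspd1 transcript. The NRF1 motif was found in 4.6% of all windows and in those of Dnaja3, Hspd1 and Spg7, and the other E-box was in Hspd1. A motif is a match of letters and does not show that a factor was bound.

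All 10 genes were detected in every library, between 20.4 and 1546 TPM and from at least 642 estimated counts, so that counting error was small. Hspa9 had the highest TPM and Hspd1 the second highest in all 6 libraries, and Clpx had the lowest. Hspa9 and Hspd1 exceeded at least 97.9% and 97.6% of the genes with at least 1 TPM, and Clpx exceeded between 46.9% and 67.3% of them. The 5 chaperones summed to 2739.8 TPM in Tsc2+/+ MEFs, 2857 TPM in Tsc2-/- MEFs, 3111 TPM in untreated MKOC cells and 2982 TPM in untreated TJ cells. In rapamycin, the sum was 1519 TPM in MKOC and 1353 TPM in TJ cells, below the 4 libraries without rapamycin.

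**Figure D1:**
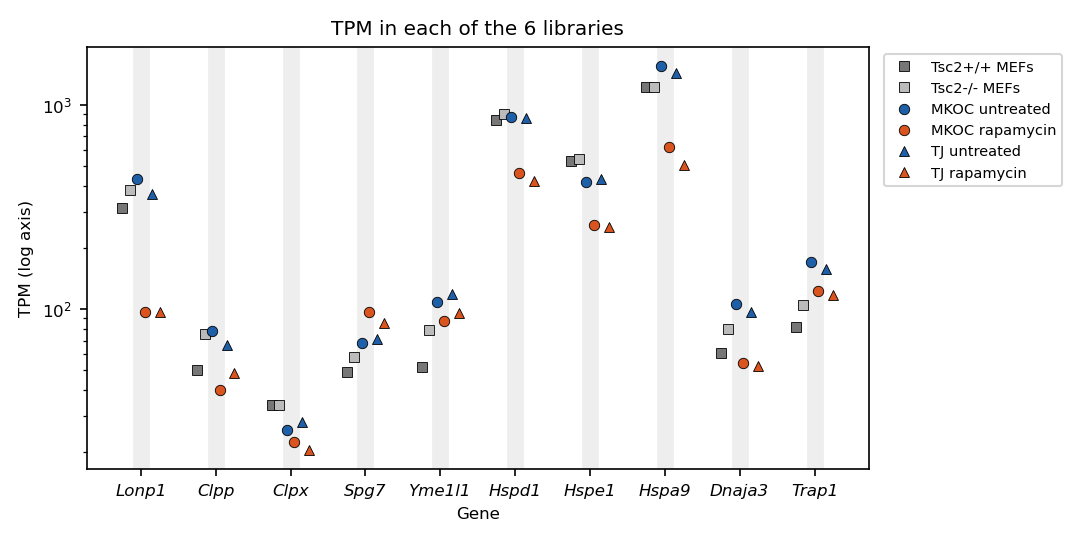
TPM (log axis) of the 10 genes in each of the 6 libraries, 1 point per library. In 9 genes both rapamycin libraries lie below both untreated kidney libraries, and in Spg7 they lie above them, with 96.1 and 85.8 TPM against 68.5 and 71.2 TPM.

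The libraries of MKOC and TJ cells asked which transcripts rapamycin changes in kidney cells labelled Tsc2-null. Because Lonp1 was chosen from this comparison, the values of the 10 genes are given as a description without a test. At an adjusted p under 0.05 in the edgeR test, which took the line into account, 34.9% of the 12952 genes tested had changed (17.5% of all genes rose and 17.4% fell). Of the 10 genes, 8 were among those that fell and Spg7 was among those that rose. In 9 of the 10 genes both treated libraries lay below both untreated ones, as in 29.5% of all genes, and in Spg7 they lay above them, as in 29.8% of all genes. Without the line in the model, 9.84% of all genes and 5 of the 10 were past the threshold. With upper-quartile normalization (34.6% of all genes past it) or DESeq2 (23.6%), Yme1l1 was not past it. Nothing is read from any of these counts, since the comparison was used to choose Lonp1. The median log2 change was -0.93 over the 5 chaperones and -0.30 over the 5 proteases, against 0.02 over all genes tested. In bulk samples fewer cells of one kind and less RNA per cell cannot be told apart.

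Cell type markers also moved with rapamycin. The 8 epithelial markers summed to 1146 and 1134 TPM in untreated MKOC and TJ cells and to 1948 and 2016 TPM with rapamycin, higher by 70.0% and 77.8%. Of the 5 that could be tested, 4 rose at an adjusted p under 0.05 in edgeR, the keratins Krt7 (log2 change 1.16), Krt8 (0.79) and Krt18 (0.78) and the tight junction gene Cldn4 (0.31), and Cdh1 did not pass (0.15). Of the 5 kidney tubule markers, 4 were tested and Cdh16 rose (0.37), with sums higher by 20.9% and 22.7%. Of the 8 fibroblast markers, 7 were tested and Dcn (0.82) and Col3a1 (1.53) rose, with sums from 59.0 to 89.1 TPM in MKOC cells and from 20.5 to 29.1 TPM in TJ cells, while Pdgfra was at 0.0955 TPM or less and Thy1 at 0.0355 TPM or less. Msln, the only one of the 4 mesothelial markers tested, rose (0.70), with list sums from 80.1 to 151 TPM and from 69.6 to 97.7 TPM, while Upk1b was listed at 0 and Upk3b and Wt1 were at 0.118 TPM or less. Of the 4 immune markers, 3 were tested and Csf1r (0.45) and Cd14 (0.75) rose, with sums from 25.2 to 33.0 TPM and from 43.1 to 54.2 TPM, while Ptprc, the pan-leukocyte marker, was at 0.0423 TPM or less. Of the 4 endothelial markers, 2 were tested and 0 passed (0 at an unadjusted p under 0.05), and their sums were at 3.71 TPM or less. The part of these markers in the values of the 10 genes was not tested.

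Lonp1, the main protease of the matrix, had 431 TPM in untreated MKOC cells, 365 TPM in untreated TJ cells, 96.8 TPM in rapamycin-treated MKOC cells and 96.4 TPM in rapamycin-treated TJ cells. Lonp1 is a gene of chromosome 17 (GRCm38, minus strand, bases 56614297 to 56626887) and is listed as 1 protein-coding transcript with 18 exons. Its treated libraries held 22.5% of the untreated TPM in MKOC cells and 26.4% in TJ cells. Its log2 change was -2.04 (SE 0.11, 2 lines), lower than that of all but 0.456% of the genes tested. The SEs given here and below come from the edgeR test, which shares variation over all genes. They are not the spread of a single gene between the 2 lines, which can be wider. Lonp1 made up 60.6% and 56.2% of the TPM of the 5 proteases in untreated MKOC and TJ cells, and 28.2% and 27.8% with rapamycin. The other 4 proteases together kept 87.7% of their TPM in MKOC cells and 88.1% in TJ cells, from 280.5 to 246 TPM and from 284 to 250.3 TPM. Lonp1 was chosen for its fall with rapamycin, so that its share of the lower sum is a description and nothing is read from it.

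The subunits of ClpXP, Clpp and Clpx, had smaller changes, and their values in the 2 lines lay further apart than those of the other 8 genes. Clpp had 78.1 TPM in untreated and 40.1 TPM in treated MKOC cells, and 66.9 and 48.8 TPM in TJ cells, with a log2 change of -0.71 (SE 0.14). Its log2 change was -0.96 in MKOC and -0.46 in TJ cells. Clpx had 25.6 and 22.2 TPM in untreated and treated MKOC cells, and 27.8 and 20.4 TPM in TJ cells. Its log2 change was -0.06 in MKOC and -0.45 in TJ cells, and -0.25 (SE 0.13) over both. Clpx was the 1 gene of the 10 that did not pass the threshold. Whether the lines differ in these responses was not tested, since 1 library per line and treatment leaves nothing to estimate the error from. In MKOC cells the main Clpx transcript (ENSMUST00000015501) had 20.5 and 20.3 TPM, and the difference in TPM came mostly from a short transcript (ENSMUST00000147279) with 5.10 and 1.94 TPM from 40.2 and 11.9 estimated counts.

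The inner membrane proteases went in opposite directions. Yme1l1 had 108 and 118 TPM in untreated MKOC and TJ cells and 87.6 and 95.4 TPM with rapamycin, a log2 change of -0.30 (SE 0.10). Spg7 had 68.5 and 71.2 TPM in untreated cells and 96.1 and 85.8 TPM with rapamycin, a log2 change of 0.40 (SE 0.10). Spg7 was the highest in the rapamycin libraries among all 6, and the MEF libraries had 49.0 and 58.3 TPM. The files list 12 Spg7 transcripts, and the higher level was not seen in all of the main ones in both lines. ENSMUST00000125975, with 17 exons, went from 18.7 to 24.9 TPM in MKOC cells and from 16.8 to 28.7 TPM in TJ cells. ENSMUST00000108868, with 3 exons, went from 24.2 to 31.2 TPM in MKOC cells and from 25.8 to 26.5 TPM in TJ cells. ENSMUST00000142541 went from 21.4 to 31.3 TPM in MKOC cells and from 24.1 to 22.1 TPM in TJ cells. Spg7 lies within a longer overlapping locus of the annotation (Gm20388), so that its share of the reads is uncertain.

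Among the chaperones, Hspa9 had 1546 and 1439 TPM in untreated MKOC and TJ cells and 621 and 507 TPM with rapamycin. Its log2 change was -1.42 (SE 0.12), lower than that of all but 1.21% of the genes tested. Dnaja3, the J-protein that stimulates Hspa9, had 106 and 97.1 TPM in untreated cells and 54.4 and 52.6 TPM with rapamycin, a log2 change of -0.93 (SE 0.10). Both of its main transcripts were lower, and the larger part, ENSMUST00000115854, stayed between 75.1% and 81.3% of the gene's TPM over all 6 libraries. Dnaja3 overlaps other genes, among them Coro7 on the opposite strand, and reads could be shared between them.

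The subunits of the folding chamber had changes of like size. Hspd1 had 869 and 857 TPM in untreated MKOC and TJ cells and 463 and 424 TPM with rapamycin, a log2 change of -0.98 (SE 0.11). Hspe1 had 419 and 431 TPM in untreated cells and 258 and 252 TPM with rapamycin, a log2 change of -0.74 (SE 0.10). The ratio of Hspd1 to Hspe1 TPM stayed between 1.59 and 2.07 in the 6 libraries, and that of Lonp1 to Hspd1 ranged from 0.209 to 0.496. Nothing is read from the wider range, since Lonp1 was chosen for its fall with rapamycin. Pseudogenes whose symbols carry the names Hspd1, Hspe1 or Hspa9 had at most 1.27 TPM in any library, and copies under other names were not searched. Trap1 had 170.3 and 157 TPM in untreated cells and 123 and 117 TPM with rapamycin, a log2 change of -0.45 (SE 0.10), the smallest of the chaperones.

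**Figure D2:**
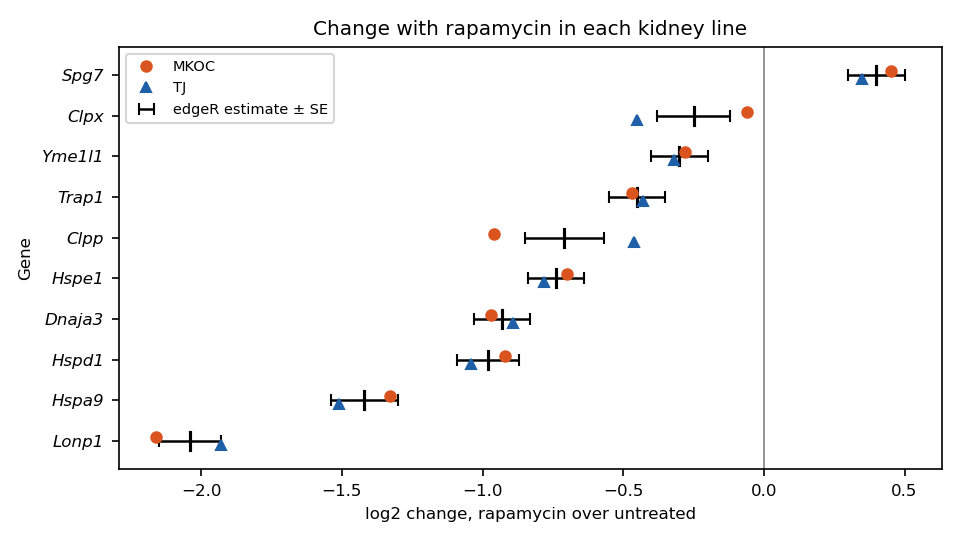
Log2 change with rapamycin of the 10 genes in MKOC (circles) and TJ cells (triangles), with the edgeR estimate over both lines and its SE (bars). Lonp1 lies lowest at -2.04 and Spg7 highest at 0.40, and the lines are furthest apart in Clpp and Clpx.

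The other genes of mitochondrial protein quality control were tested in the same fit. Of 12 other mitochondrial proteases and peptidases, 11 could be tested, of which 6 fell, 1 rose and 4 did not pass, with a median log2 change of -0.34. The largest falls were those of Afg3l2, the partner subunit of Spg7 in the m-AAA protease, which went from 102 to 66.8 TPM in MKOC and from 101 to 63.8 TPM in TJ cells (log2 change -0.65, SE 0.10, adjusted p = 8.0e-04 by edgeR), of Pitrm1, which degrades cleaved targeting sequences (-0.56, SE 0.11), and of Parl, a rhomboid protease of the inner membrane (-0.50, SE 0.12). Oma1, the stress-activated protease of the inner membrane, rose from 9.70 to 14.1 TPM in MKOC and from 9.52 to 13.0 TPM in TJ cells (0.50, SE 0.15, adjusted p = 0.024 by edgeR). Spg7 and Afg3l2, which can form 1 complex, thus had changes of opposite sign.

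Of 15 other mitochondrial chaperones, co-chaperones and assembly factors, 8 fell, 1 rose and 6 did not pass, with a median of -0.32. Dnajc15, a J-protein of the import motor, changed by -0.65 (SE 0.14), Grpel1, the nucleotide exchange factor of Hspa9, by -0.61 (SE 0.11), and Phb, the prohibitin that scaffolds the inner membrane, by -0.56 (SE 0.10). Dnlz, which keeps Hspa9 soluble, rose by 0.51 (SE 0.11, adjusted p = 0.0057 by edgeR), from 20.5 to 30.7 TPM in MKOC and from 18.4 to 25.2 TPM in TJ cells. Hspa9 itself and its exchange factor were lower in the same libraries.

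Of 19 genes of protein import, 14 fell, none rose and 5 did not pass, with a median of -0.54. Timm8a1, a small chaperone of the intermembrane space, went from 82.2 to 38.2 TPM in MKOC and from 78.4 to 30.6 TPM in TJ cells (-1.24, SE 0.12, adjusted p = 6.3e-05 by edgeR). Tomm40, the channel of the outer membrane, changed by -0.89 (SE 0.12), and Timm23, the channel of the inner membrane, by -0.79 (SE 0.15), with -1.14 in MKOC and -0.45 in TJ cells. Of 15 genes taken as a measure of mitochondrial content, 14 could be tested, of which 7 fell, 1 rose and 6 did not pass, with a median of -0.38. Vdac2, a porin of the outer membrane, changed by -0.74 (SE 0.10), and Ppargc1a and Ppargc1b, coactivators of mitochondrial biogenesis, by -0.76 (SE 0.12) and -0.75 (SE 0.23). Polg, the polymerase of mitochondrial DNA, rose by 0.36 (SE 0.10). Over both lines, the medians of the 5 chaperones (-0.93) and of the import genes lay below that of the content genes. Those of the 5 proteases (-0.30), the other proteases (-0.34) and the other chaperones (-0.32) lay above it. In TJ cells alone, the 5 proteases (-0.45) and the other proteases (-0.40) lay below the content genes (-0.34). No test compared the lists.

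The 13 mRNAs of the mitochondrial genome had the opposite sign. Of these, 11 rose and 2 did not pass, with a median log2 change of 0.85. The median was 1.25 in MKOC cells and 0.33 in TJ cells, so that the size of this change rests mainly on the MKOC libraries. Transcripts of the mitochondrial genome took 1.88% of the estimated counts in untreated and 4.22% in treated MKOC cells, and 3.66% and 4.51% in TJ cells. The largest rises were those of mt-Atp8 (1.26, SE 0.22), mt-Atp6 (1.19, SE 0.22), which overlaps it, and mt-Nd2 (0.95, SE 0.21). The median of the 5 chaperones was -0.92 in MKOC and -0.89 in TJ cells, so that its size did not follow that of this rise across the lines. The part of the rise in the values of the nuclear genes was not tested.

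Cytosolic and ER relatives were examined to see whether chaperones of other compartments changed as well. Of 21 such genes, 11 fell, 3 rose and 7 did not pass, with a median of -0.31. The largest falls were those of Cct8 (-0.73, SE 0.10) and Cct7 (-0.69, SE 0.10), subunits of the cytosolic chaperonin, and Hspa4 (-0.64, SE 0.10), an exchange factor of Hsp70. Hspa8, the constitutive Hsp70 of the cytosol, rose from 1817 to 2939.7 TPM in MKOC and from 1763 to 2538 TPM in TJ cells (0.64, SE 0.12, adjusted p = 0.0029 by edgeR). The heat-inducible genes Hspa1a and Hspa1b, which are known targets of Hsf1, rose by 2.80 (SE 0.37) and 1.30 (SE 0.19), but stayed at or below 6.21 TPM in the kidney libraries, and as near-identical copies they share reads. The other heat-inducible genes given here were named after their values were seen, and none of them passed with a rise. Dnajb1 was still higher in both lines, going from 51.1 to 60.9 TPM in MKOC and from 53.6 to 58.0 TPM in TJ cells. A part of Hsf1 in these changes was not tested. Hsp90aa1 fell by 0.43 (SE 0.13, adjusted p = 0.023 by edgeR), and Hsph1 (-0.14, SE 0.11), Dnajb1 (0.17, SE 0.11) and Dnaja1 (0.10, SE 0.10) did not pass.

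**Figure D3:**
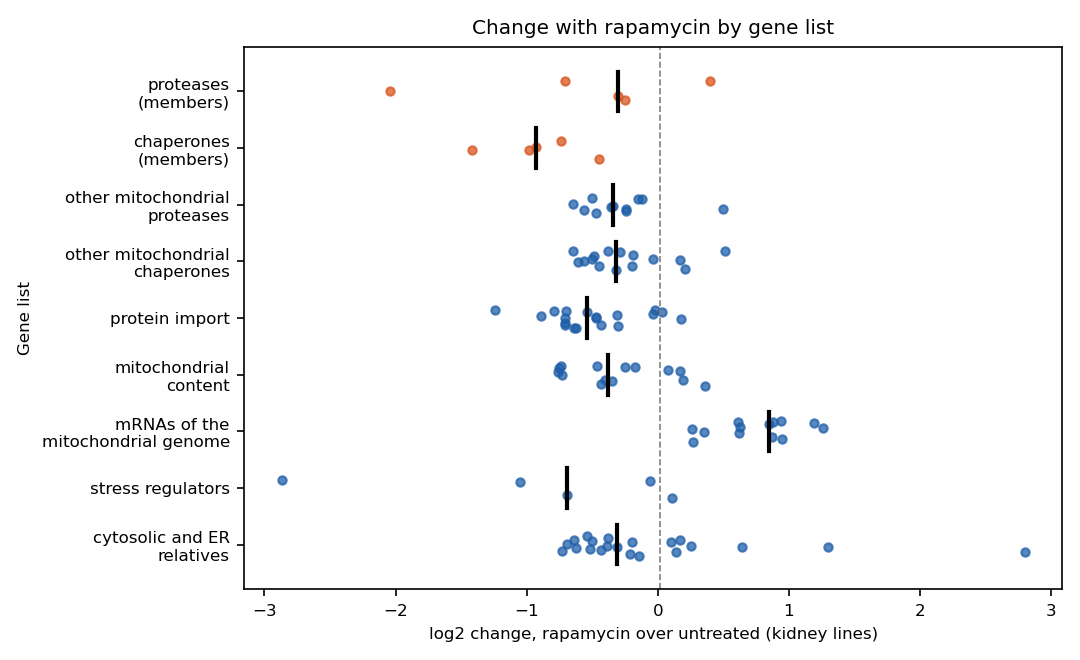
Log2 change with rapamycin of each tested gene (points) by gene list, with the list median (black bars) and the median over all genes tested (dashed line, 0.02). The chaperones described here have a median of -0.93, and all 13 mRNAs of the mitochondrial genome lie above 0.

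Lonp2, the peroxisomal relative of Lonp1, was measured as a comparison within the Lon family. Lonp2 had 54.1 and 61.9 TPM in untreated MKOC and TJ cells and 59.2 and 69.0 TPM with rapamycin, and did not pass the test (log2 change 0.14, SE 0.10, adjusted p = 0.29 by edgeR). The ratio of Lonp1 to Lonp2 TPM was 7.96 and 5.89 in untreated MKOC and TJ cells and 1.64 and 1.40 with rapamycin, against 6.75 and 7.83 in the Tsc2+/+ and Tsc2-/- MEFs. Lonp1 was chosen for its fall in these kidney libraries, so that nothing is read from the lower ratio with rapamycin.

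Of the 5 stress regulators, 3 fell with rapamycin. Ddit3 went from 199.7 to 24.1 TPM in MKOC and from 178 to 27.4 TPM in TJ cells (log2 change -2.87, SE 0.13, adjusted p = 1.8e-06 by edgeR). Atf4 went from 575 to 309 TPM and from 568 to 250.1 TPM (-1.05, SE 0.11, adjusted p = 1.1e-04 by edgeR). Atf5 went from 129 to 103 TPM in MKOC and from 130.4 to 62.9 TPM in TJ cells (-0.69, SE 0.15, adjusted p = 0.0061 by edgeR), and its change was -0.34 in MKOC and -1.04 in TJ cells. Hsf1 had 52.7 and 49.9 TPM in untreated cells and 49.1 and 49.5 TPM with rapamycin (-0.06, SE 0.11, adjusted p = 0.67 by edgeR). Cebpb had 15.1 and 15.2 TPM in untreated cells and 13.2 and 20.2 TPM with rapamycin (0.11, SE 0.17, adjusted p = 0.66 by edgeR). In the MEF libraries Ddit3 had 478 and 438 TPM, above all 4 kidney libraries. A link between the levels of these regulators and those of the 10 genes was not tested.

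**Figure D4:**
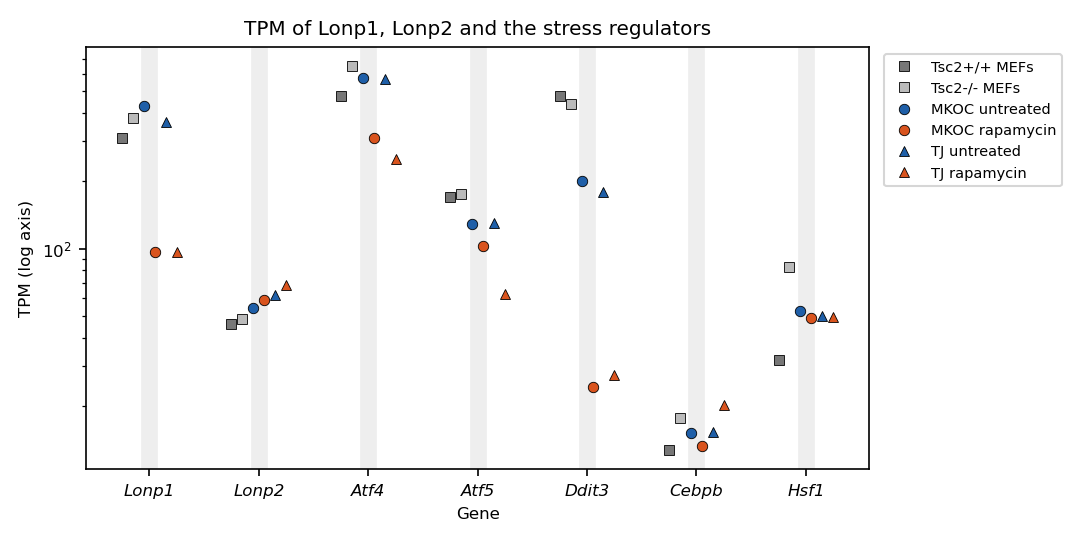
TPM (log axis) of Lonp1, Lonp2 and the 5 stress regulators in each of the 6 libraries, 1 point per library. Lonp1, Atf4, Atf5 and Ddit3 are lowest in the rapamycin libraries, and Lonp2 and Hsf1 are not.

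The same 4 libraries compared the tumor-derived TJ cells with MKOC cells. With treatment as a covariate, 8.79% of the 12952 genes differed at an adjusted p under 0.05 in edgeR, and 0 of the 10 genes did. DESeq2 called 4.8% and limma 4.67% of all genes, again with 0 of the 10. Without the covariate edgeR called 0 genes in all, so that the calls given below rest on it. At an unadjusted p under 0.05 in edgeR, 0 of the 10 passed, against 2934 of the 12952 genes tested. Hspa9 did when no filter on low counts was used (adjusted p = 0.16 by edgeR). The log2 differences of TJ over MKOC ranged from -0.22 to 0.12. Hspa9 had the largest, with -0.22 (SE 0.12, adjusted p = 0.31 by edgeR), followed by Lonp1 with -0.14 (SE 0.10, adjusted p = 0.48 by edgeR) and Yme1l1 with 0.12 (SE 0.10, adjusted p = 0.53 by edgeR). With 2 libraries per line, smaller differences than the SE allows could not be detected. Among the related genes, Timm50, an import receptor of the inner membrane, was lower in TJ cells (-0.43, SE 0.11, adjusted p = 0.04 by edgeR), as were Hsph1 (-0.47, SE 0.11) and Cct6a (-0.40, SE 0.10), cytosolic chaperones. Ppargc1a was higher in TJ cells (0.85, SE 0.12, adjusted p = 0.0024 by edgeR), and so were mt-Nd2, mt-Nd5 and mt-Nd6 (0.85, 0.59 and 0.68). The difference in mt-Nd2 was 1.40 without and 0.31 with rapamycin. Cell type markers differed between the lines as well. Of the fibroblast markers Pdgfrb was higher in TJ cells (2.63) and Fn1 and Dcn were lower (-1.29 and -2.12), of the immune markers Csf1r and Cd14 were higher (0.94 and 0.76), the tubule marker Cdh16 was higher (0.47), the mesothelial marker Msln (-0.43) and the endothelial marker Cdh5 (-1.57) were lower, and 0 of the 5 epithelial markers tested passed in edgeR (1 at an unadjusted p under 0.05). The part of these markers in the differences between the lines was not tested.

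The untreated kidney lines were compared with the MEFs. Of 13473 genes, 9.93% differed at an adjusted p under 0.05 in edgeR, and 0 of the 10 did. At an unadjusted p under 0.05 in edgeR, 2 of the 10 passed, Trap1 and Yme1l1, against 4390 of the 13473 genes tested. Trap1 had 170.3 and 157 TPM in the kidney lines and 82.0 and 105 TPM in Tsc2+/+ and Tsc2-/- MEFs (log2 difference 0.71, SE 0.17, adjusted p = 0.073 by edgeR). Yme1l1 had 108 and 118 TPM against 51.9 and 79.0 TPM (0.71, SE 0.17, adjusted p = 0.077 by edgeR). DESeq2 called both of them, among 29.5% of all genes, and limma called 0 of the 10, against 9.21% of all genes. Clpx had 25.6 and 27.8 TPM in the kidney lines against 33.9 and 33.8 TPM in the MEFs, and Hspe1 had 419 and 431 TPM against 531 and 544 TPM. Their log2 differences were -0.56 (SE 0.27, adjusted p = 0.23 by edgeR) and -0.45 (SE 0.21, adjusted p = 0.23 by edgeR). The groups did not overlap in 6 of the 10 genes, against 66.7% of all genes. With either MEF library left out, the remaining MEF library was assumed to vary like the kidney lines, which alone gave the spread. Without the Tsc2+/+ library 47.7% of all genes were then called, Yme1l1, Dnaja3 and Trap1 among them. Without the Tsc2-/- library 56.1% were called, Clpx, Yme1l1, Hspe1 and Trap1 among them, and nothing is read from these calls about the 10 genes. With either kidney library left out, the spread came from the MEF libraries alone, 0 genes in all were called by edgeR, and 0 of the 10 had an unadjusted p under 0.05. Among the related genes, Pmpca, a subunit of the peptidase that removes targeting sequences, was higher in the kidney lines, with 200.2 and 194 TPM against 68.5 and 92.5 TPM (1.18, SE 0.17, adjusted p = 0.035 by edgeR).

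**Figure D5:**
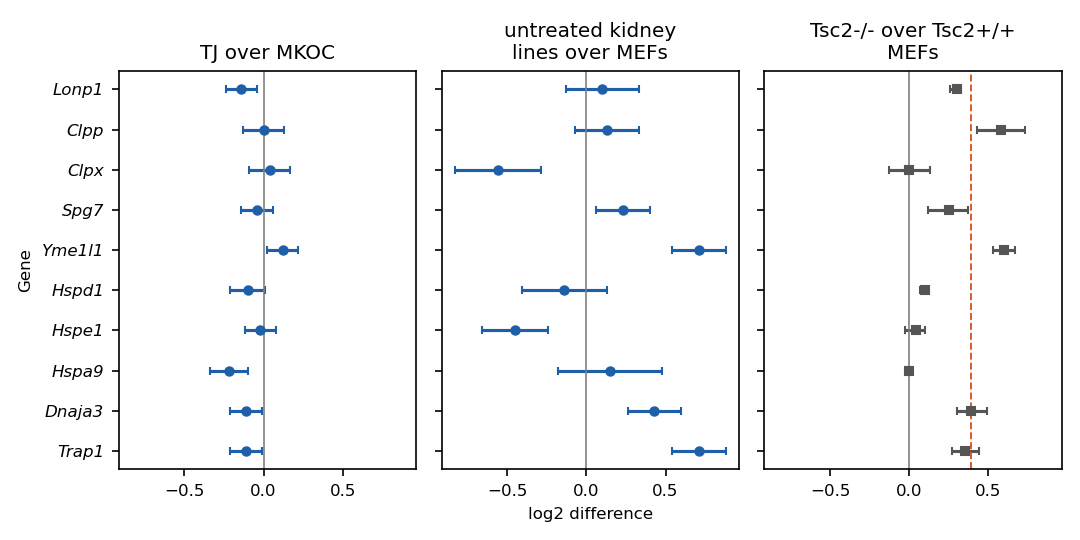
Log2 differences of the 10 genes for TJ over MKOC cells and for untreated kidney lines over MEFs (circles, edgeR estimate with its SE), and for Tsc2-/- over Tsc2+/+ MEFs (squares, with the counting interval, 1 library each). All differences lie between -0.56 and 0.71, and the dashed line at 0.39 is the median shift between the MEF libraries.

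The MEF libraries compared Tsc2-/- with Tsc2+/+ cells, with 1 library each and therefore without a replicate check or a test. Of the 12771 genes with at least 1 TPM in either library, 30.4% differed at least 2-fold in TPM with 1 added, and 0 of the 10 did. The log2 differences of Tsc2-/- over Tsc2+/+ MEFs ranged from -0.00 in Clpx to 0.60 in Yme1l1, which had 51.9 and 79.0 TPM in Tsc2+/+ and Tsc2-/- MEFs. Lonp1 had 311 and 381 TPM, a log2 difference of 0.30 with a 95% interval of 0.26 to 0.33 that covers counting error only. Hspa9 had 1224 and 1228 TPM and Hspd1 had 842 and 900.3 TPM. The median log2 ratio was 0.39 over the 7377 genes that reached 10 TPM in each of these libraries, and relative to it Lonp1 was at -0.09, Hspd1 at -0.29, Hspa9 at -0.39, Clpp at 0.19 and Yme1l1 at 0.21. Of the 10 genes, 9 were above 0 in TPM, against 9429 of the 12771 genes, and 3 were above the median shift, against 6866. With TMM-normalized CPM, the differences ranged from -0.53 to 0.10 and 2 were above 0, against 6354 of the 12771 genes. The direction of 7 of the 10 genes thus depends on the scaling. Transcripts under 300 bases took 20.9% of all TPM in Tsc2+/+ MEFs and 7.12% in Tsc2-/- MEFs. Without them, the median log2 difference was 0.06 over the 5 proteases and -0.13 over the 5 chaperones, against 0.30 and 0.10 with them.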

How the data were processed

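Poly(A)-selected, stranded RNA-Seq libraries of 6 samples were sequenced as paired-end reads. After trimming, the authors quantified transcripts with Kallisto and deposited the estimated counts and TPM of 88198 transcripts in every library. From the deposited table of the fold ratio between the MEF libraries, only the gene symbols were taken. The study's methods name a human transcriptome as reference, but the deposited identifiers are those of mouse, and whether Kallisto used strand is not given in the sources used here. Estimated counts and TPM were summed per symbol over 30281 symbols. The symbol was missing for 1006 transcripts, which held between 0.372% and 0.468% of the counts, and the first symbol was kept for 8 transcripts with 2 symbols. Positions came from GENCODE M21 (GRCm38) and promoters from RefSeq.

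Rounded estimated counts were filtered (filterByExpr) and scaled (TMM) in edgeR, whose quasi-likelihood F-test gave p-values that were adjusted by Benjamini-Hochberg over all genes at 0.05. The cell line was the covariate for rapamycin, and libraries were paired by the line named in their labels. The deviations of libraries of 1 line from the treatment means had a correlation of 0.56 over 12952 genes. Treatment was the covariate for TJ against MKOC, and 2 untreated kidney libraries were compared with 2 MEF libraries without a covariate. The p-values measure the spread between cell lines or single cultures, as nothing in the labels gives replicate cultures. This spread was estimated with variation shared over all genes. The SE of an edgeR estimate is the size of its log2 change divided by the square root of F. It is therefore not the spread of a single gene between the lines. The MEF libraries were compared by log2 TPM with 1 added and called at 2-fold, with Wilson intervals at 95% that cover counting error only. The steps were tested on simulated data.

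The 10 genes, the gene lists and the tests were chosen with earlier results of these data known. All 10 genes were named, as were Lonp2, the stress regulators and, of each other list, at most the 3 largest rises and 3 largest falls past the threshold in each tested comparison. Outside this rule, Cldn4, Cdh1, markers at or near 0, Hsp90aa1, Hsph1 (with rapamycin), Dnajb1 and Dnaja1 were named after their values were seen. The promoter motif TGACGT was added after the promoters had been read. Alternatives were RLE and upper-quartile normalization, DESeq2, limma on log2 TPM with 1 added, other filters, no covariate, left-out libraries and, for the MEFs, other pseudocounts and scalings. Motifs in proteins were not analysed here. R 4.3.3, edgeR 4.0.16, limma 3.58.1, DESeq2 1.42.0, Python 3.11.15, numpy 2.4.6, pandas 2.3.3 and matplotlib 3.10.9 were used.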

Additional observations from a re-analysis of the deposited data

Results flagged for a closer look

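Cebpb, a C/EBP transcription factor that pairs with Atf4 and Ddit3, had log2 changes with rapamycin of opposite sign in the 2 kidney lines, -0.20 in MKOC cells and 0.41 in TJ cells. It was low in all 4 libraries, with 15.1 and 13.2 TPM in untreated and treated MKOC cells and 15.2 and 20.2 TPM in TJ cells. The difference between the lines was not tested, since there is 1 library per line and treatment. None of the 10 mitochondrial chaperones and proteases had opposite signs in the lines.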

How the results depend on the processing

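No mitochondrial chaperone or protease changed sign with rapamycin under any alternative. Without a replicate block, that is without the cell line as a covariate, 1275 genes passed in place of 4526, and 5 of the 10 genes (Lonp1, Hspd1, Hspe1, Hspa9 and Dnaja3) in place of 9. With upper-quartile normalization 34.6% of all genes passed, and with DESeq2 23.6%. In both, the count among the 10 was 8, without Yme1l1. These counts and signs are no sign of stability, since Lonp1 was chosen from this comparison. For TJ against MKOC, 0 genes passed without the replicate block (treatment), and 0 of the 10 passed either way. The share of rises among the calls for rapamycin was 2474 of 4477 with upper-quartile normalization. The median of the 5 chaperones was -0.89 there, and that of the mitochondrial content list -0.34, or -0.33 among genes with at least 100 counts in every library. Leaving out each line in turn, medians ranged from -0.45 to -0.28 for the proteases, -0.92 to -0.89 for the chaperones, -0.32 to -0.27 for the other chaperones and -0.38 to -0.34 for the content list.

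For TJ against MKOC, 622 genes passed with DESeq2, 605 with limma, 1753 with no filter and 753 with at least 100 counts in every library, in place of 1139. The median of the proteases was 0.03 with that filter, -0.05 without the block, and between -0.02 and 0.01 with either treatment left out. Differences near 0 changed sign. Ddit3 was at 0.01 with upper-quartile normalization and DESeq2, 0.00 with limma and 0.02 with the count filter, in place of -0.00. Hspe1 was at 0.00 with limma and 0.01 with the count filter, Clpx at -0.00 with limma, and Clpp at -0.05 without the block.

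For the kidney lines against MEFs, 3969 genes passed with DESeq2 and 561 with at least 100 counts in every library, in place of 1338, and between 0 and 7924 with 1 library left out. The median of the proteases then ranged between 0.03 and 0.26. That of the chaperones, 0.15 with all libraries, was 0.44 without the Tsc2+/+ MEFs and changed sign to -0.06 without the Tsc2-/- MEFs. Of the differences that did not pass, those of Atf4 (0.04) and Cebpb (0.02) changed sign with limma, and those of 5 genes with 1 library left out, where Hspd1 ranged from -0.30 to 0.09, Hspa9 from -0.06 to 0.44, Hsf1 from -0.53 to 0.35, Lonp2 from -0.01 to 0.38 and Lonp1 from -0.02 to 0.25. No paired analysis was possible for this comparison or the MEFs, because the labels give their libraries no shared line.

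Between the MEFs, 2139 genes differed at least 2-fold with a pseudocount of 5 TPM and 2434 among genes with at least 1 TPM in both, in place of 3884. The medians of the proteases and chaperones were -0.09 and -0.29 with a median ratio of 1, -0.12 and -0.40 with TMM-normalized CPM, and 0.06 and -0.13 without transcripts under 300 bases. Depth did not limit these values, as each of the 10 genes had at least 642 estimated counts, but 1 library per condition did.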
